A study of Triticum aestivum with 24 samples.

Results

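Across both wheat lines and at every sampled time, 200 probe sets were higher in sheaths with Hessian fly larvae than in sheaths without. They were chosen by their measured signals, from 61179 wheat probe sets of an Affymetrix array. Signals under 85 were raised to 85 and log2 was taken. The mean of 3 infested arrays was then set against the mean of 3 uninfested arrays of the same line, for 2 lines at 6, 12 and 24 h. The 200 probe sets whose lowest value over these 6 comparisons was highest were kept. The rise therefore chose them, and it is given here as a description with no test.

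Molly seedlings with larvae and Newton seedlings with larvae were sampled 6, 12 and 24 h after the eggs hatched, and Molly and Newton seedlings without larvae at 12 h, which gives 8 groups of 3 arrays. Molly has the resistance gene H13, so that its pairing with the fly is incompatible, and Newton lacks resistance, so that its pairing is compatible. Each sample was a short stretch of the second leaf sheath, with 10 plants listed per sample. Seedlings with larvae had been infested at the two-leaf stage, with 10 females listed. Because uninfested sheaths were taken at 12 h only, infestation, plant age and the hour of sampling cannot be told apart in the rises at 6 and 24 h. Infested replicates are described as biological in the labels, whereas uninfested ones carry just a number, so the spread between uninfested arrays may be technical. P-values between uninfested groups rest on a spread estimated over all groups together, infested ones included. In such bulk tissue fewer cells of a type and less RNA per cell cannot be told apart either.

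Hessian fly larvae crawl to the base of the seedling and feed between the leaf sheaths, where they release salivary proteins into plant cells. In a susceptible plant the cells at the feeding site turn into a nutritive tissue and the seedling is stunted. A resistance gene such as H13 lets the plant recognise the larva, which then dies without growing. Bread wheat has several related subgenomes, and a probe set, a group of short oligonucleotides for 1 transcript, can pick up more than 1 copy of a gene.

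The lowest of the 6 rises lay between 0.70 and 3.65 on the log2 scale, with a median of 0.94, or 1.92-fold. All 6 rises reached 2-fold for 79 probe sets and 4-fold for 10. At the limit, Ta.13214.1.S1_at and Ta.25481.2.S1_x_at were kept with lowest rises of 0.699 each, and Ta.1760.1.S1_x_at and Ta.9960.1.S1_a_at were left out with 0.696 and 0.695. No gap in the values marks the limit, which stood at 1.62-fold.

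Within the 200 probe sets the median rise was larger in Molly than in Newton at 6 and 12 h. The median rise of the 200 probe sets in Molly was 2.40 at 6 h, 1.92 at 12 h and 1.87 at 24 h (log2). In Newton it was 1.22 at 6 h, 1.10 at 12 h and 1.73 at 24 h, and over all wheat probe sets it was 0 in each comparison. The rise in Molly exceeded that in Newton for 178 probe sets at 6 h, 167 at 12 h and 97 at 24 h. A Newton comparison gave the lowest of the 6 rises for 152 probe sets, most often the one at 12 h, with 90. At 12 h, when infested and uninfested sheaths were sampled alike, 114 probe sets had a rise of at least 2-fold in both lines. The counts in this paragraph use the 6 values that chose the set. They have no share of all wheat probe sets beside them, so nothing is read from them.

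The median of their geometric mean signals was 1055 at 6 h, 805 at 12 h and 719 at 24 h in infested Molly, against 156 in uninfested Molly. In infested Newton it was 431 at 6 h, 376 at 12 h and 636 at 24 h, against 147 in uninfested Newton. Over all wheat probe sets the uninfested median was 76.9 in Molly and 79.1 in Newton. Without larvae 143 of the 200 were above 85 in both lines, 24 in 1 line and 33 in neither. The highest signal of the 8 control probe sets designed against tags foreign to wheat was 85, so signals under 85 are not told from background. Where an uninfested array of a line read less, the rise in that line is given as a lower bound. In all 6 infested groups 31 probe sets read 1000 or more.

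All 9 infested Molly arrays lay above the 3 uninfested Molly arrays for 191 probe sets, where 7.49% of all wheat probe sets did so. All 9 infested Newton arrays lay above the 3 uninfested Newton arrays for 125, where 5.36% did, and both lines were separated for 116, against 0.94%. The choice of the 200 used these same arrays, so nothing is read from these counts.

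**Figure D1:**
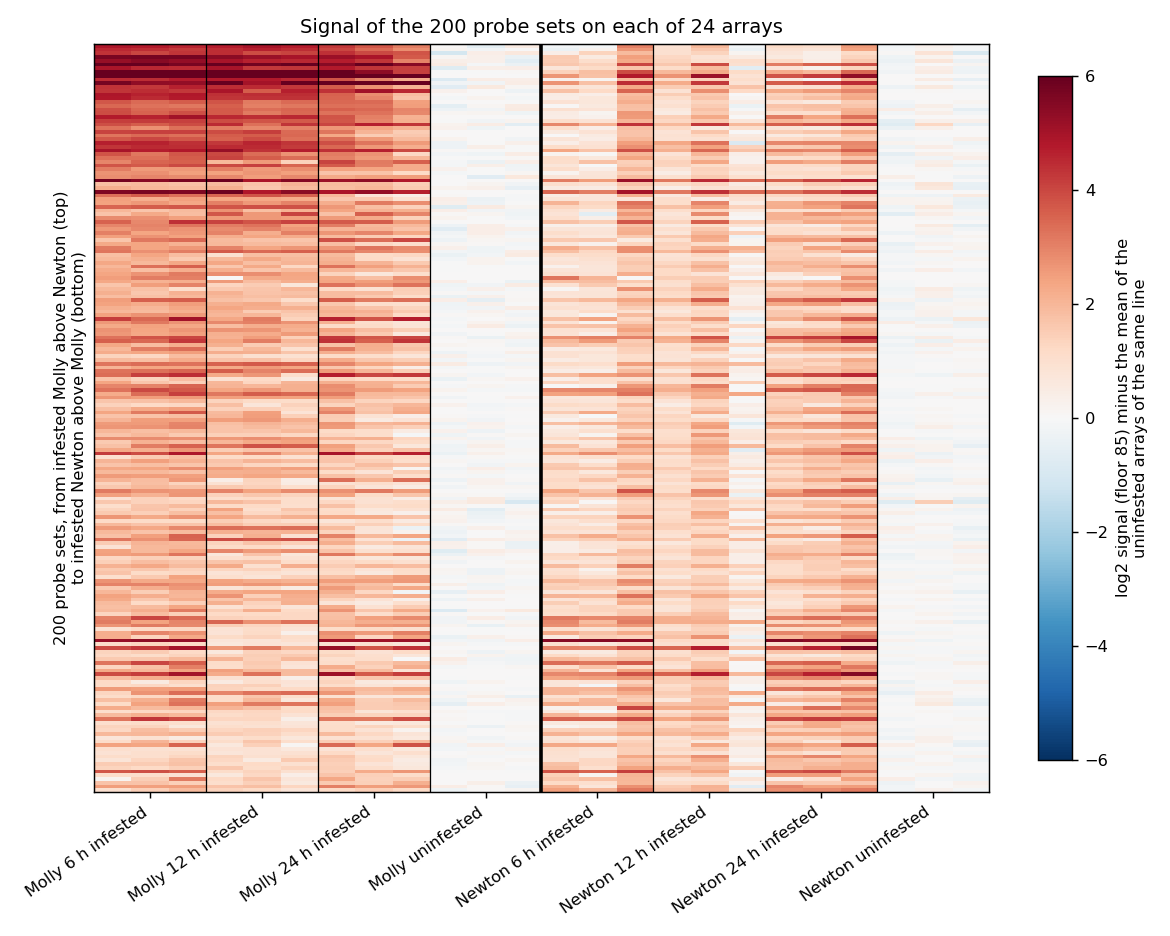
Each row is 1 of the 200 probe sets and each column 1 of the 24 arrays, 3 per group, with a thick line between Molly and Newton; colour is log2 signal (floor 85) minus the mean of the uninfested arrays of the same line, with colours ending at 6. Rows are ordered by infested Molly minus infested Newton; uninfested columns are pale by construction, and Newton replicate 3 at 6 h and replicate 2 at 12 h are darker than the other arrays of their groups.

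The infested Newton arrays differed among themselves over the whole set. The median signal of the 200 probe sets was 982, 1065 and 1161 on the Molly arrays at 6 h and 832, 845 and 741 at 12 h, against 389, 345 and 725 on the Newton arrays at 6 h and 392, 623 and 268 at 12 h. Newton replicate 3 was the highest array of its group at 6 h for 168 of the 200 probe sets and Newton replicate 2 at 12 h for 167, where over all tested probe sets they were highest for 34.3% and 39.1%. Newton replicate 3 was the lowest at 12 h for 159, against 37.8% of all tested probe sets. At 24 h the median was 923, 700 and 603 in Molly, against 549, 617 and 815 in Newton. The highest array of that time was replicate 1 in Molly for 140 members, against 34.2% of all tested probe sets, and replicate 3 in Newton for 144, against 31.4%. The median SD within a group was 0.21, 0.24 and 0.39 in infested Molly and 0.54, 0.60 and 0.33 in infested Newton at 6, 12 and 24 h (log2). Over all tested probe sets it lay between 0.17 and 0.23 in every group. The choice of the 200 used these same arrays and could favour probe sets lifted by 1 high array. Nothing is therefore read from these counts and spreads beside those of all tested probe sets.

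Without Newton replicate 2 at 12 h the same rule kept 155 of the 200 probe sets, and without Newton replicate 3 at 6 h it kept 158. The 18S rRNA control read 1074 to 4208 on infested arrays and 3943 to 8346 on uninfested arrays, and its part in the rises was not tested. Summed signal per array was nearly equal, between 45363000 and 47971000.

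**Figure D2:**
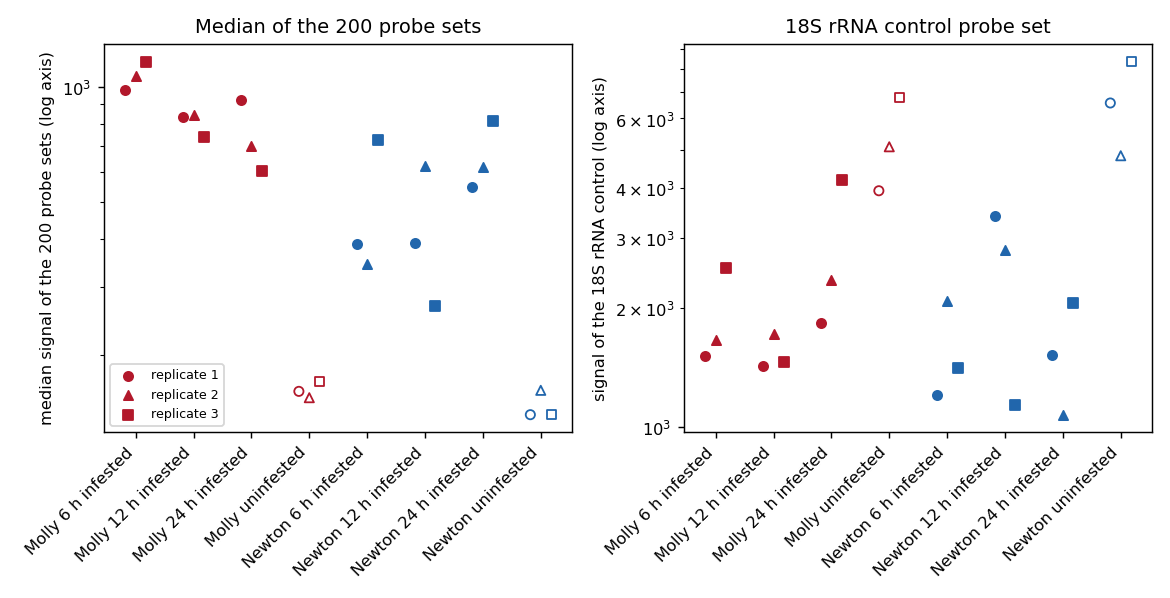
Left, the median signal of the 200 probe sets on each array; right, the signal of the 18S rRNA control (both log axes), with filled symbols for infested and open for uninfested arrays, red for Molly, blue for Newton, and symbol shape for the replicate number. All 18 infested arrays lie above all 6 uninfested arrays on the left, and the control is mostly lower on infested arrays.

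Markers of the tissue were read beside the set. Of 7 symbols listed as green tissue markers, 2 were found, with 3 probe sets. They were PRK, a phosphoribulokinase of the Calvin cycle, and PsbP, a subunit of photosystem II. In Molly the summed signal was 21440 to 25572, 23145 to 24607 and 24308 to 30280 at 6, 12 and 24 h with larvae. Without larvae it was 21617 to 25472. In Newton it was 21754 to 32016, 17966 to 24527 and 24430 to 28578 with larvae, against 25434 to 28423 without. At 12 h every infested Newton array thus lay below every uninfested Newton array. The dividing cell markers, 4 histone genes and Hmgb3, a chromatin protein gene, had 18 probe sets whose mean in each infested group was lower than in the uninfested group, by log2 differences between -2.12 and -0.07. Their summed signal was 102038 to 119176, 129180 to 173920 and 151904 to 250944 in Molly at 6, 12 and 24 h with larvae, against 265395 to 271926 without. In Newton it was 139479 to 206361, 128467 to 249200 and 104205 to 128780 with larvae, against 228693 to 257160 without. Their part in the rises was not tested. Of 4 probe sets of ALP, listed as a seed and anther marker, 3 were at or under 85 in every group. The summed signal was 3498 to 5154 on infested arrays and 4417 to 4787 on uninfested arrays. Nearly all of it came from Ta.27777.1.S1_at, with geometric means of 3658 to 4944 over the groups. The probe sets thus differed, and whether ALP was present in these sheaths is not settled.

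The array annotation paired 16 of the 200 probe sets with a gene, 8% against 2.08% of all wheat probe sets. TUBA, an alpha-tubulin gene, and Rab15, a dehydrin gene listed as LOC543293, have names that say what they are, and the other 14 have a locus identifier alone. No function is given here for the 184 probe sets with no gene. Types of probe set that can match several transcripts were frequent: 57 were of type _x_at, 28.5% against 14.2% of tested probe sets, and 20 of type _s_at, 10% against 5.82%. By their numbers the 200 came from 155 design clusters, and 34 clusters held more than 1 member, 79 members in all, so members are not independent of each other.

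The rule put a floor under all 6 rises but did not set infested groups against each other. Those comparisons were tested with limma over the 36707 probe sets left after the dimmest 40% were set aside, which kept all 200 members. They use the same arrays as the rule and so are no test on new samples. The floor also limits how far a member can fall between infested groups. Counts of members beside all tested probe sets are therefore descriptions, and nothing is read from a count of 0. A difference was called at a Benjamini-Hochberg adjusted p under 0.05. Each array was also left out in turn, and a floor of 85, other scalings, no filter and an 18S rRNA covariate were tried. Where that ended a call, the adjusted p stands beside it.

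LOC100049032 (Ta.8614.1.S1_at) had the highest lowest rise. The probe set read 4086, 4376 and 4111 at 6 h, 5060, 2388 and 3625 at 12 h and 2505, 3333 and 2122 at 24 h in infested Molly, against 83.6, 11.9 and 29.4 in uninfested Molly. The Newton signals were 911, 717 and 2663 at 6 h, 766, 1766 and 889.7 at 12 h and 829, 1149 and 1861 at 24 h with larvae, against 44.3, 46.6 and 30.4 without. Every infested array lay far above every uninfested array of its line, and all uninfested arrays were at background. Its rise was at least 49.3, 41.5 and 30.7-fold in Molly and at least 14.1, 12.5 and 14.2-fold in Newton at 6, 12 and 24 h. Infested Molly was higher than infested Newton at 6 h by 1.80 ± 0.53 (log2, SE; limma adjusted p = 0.013), a call lost without Newton 6 h replicate 1 (0.058), or without Newton 6 h replicate 2 (0.08). At 12 h it was higher by 1.73 ± 0.53 (log2, SE; limma adjusted p = 0.017), a call lost without Newton 12 h replicate 1 (0.072), or without Newton 12 h replicate 3 (0.055), or without Molly 12 h replicate 1 (0.076). The other probe sets of the gene and of its design cluster differed. Both further probe sets listed for LOC100049032 were under 85 in every group. In the cluster, Ta.8614.3.S1_x_at ranked 299 and Ta.8614.3.S1_at ranked 38790, the last with rises between -0.15 and 0.61 (log2). Ta.8614.2.S1_x_at was a member at rank 10, with a rise of at least 12.1, 15.7 and 9.83-fold in Molly and at least 5, 4.38 and 4.41-fold in Newton at 6, 12 and 24 h.

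Ta.16907.1.S1_at came next in order. It read 4518, 3699 and 4411 at 6 h, 4974, 2547 and 3906 at 12 h and 2955, 3546 and 2361 at 24 h in infested Molly, against 28.1, 2.82 and 17.2 in uninfested Molly. Infested Newton arrays read 713, 486 and 2935 at 6 h, 757, 1870 and 883 at 12 h and 1020, 1424 and 2025 at 24 h, against 22.8, 38.1 and 3.83 on uninfested Newton arrays. As for LOC100049032, replicate 3 stood highest in Newton at 6 h and replicate 2 at 12 h, and uninfested arrays were at background. Infested Molly was higher than infested Newton at 6 h by 2.06 ± 0.77 (log2, SE; limma adjusted p = 0.047), a call lost without any 1 of 5 of the 6 arrays (adjusted p between 0.08 and 0.21), or with median centring, with no filter (0.059 to 0.065).

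Ta.758.1.A1_at had the largest rise of the 200 in Molly at 24 h. It read 6979, 6514 and 6556 at 6 h, 11892, 6231 and 9407 at 12 h and 10104, 15177 and 10662 at 24 h in infested Molly, against 29.9, 35.4 and 56.5 in uninfested Molly. In Newton it read 532, 287 and 2336 at 6 h, 552, 2986 and 154 at 12 h and 1178, 1537 and 3409 at 24 h with larvae, against 4.68, 25.5 and 1.64 in uninfested sheaths. The infested lines did not overlap at any time, and all uninfested arrays were at background. The rise was at least 78.6, 104 and 139-fold in Molly and at least 8.34, 7.45 and 21.6-fold in Newton at 6, 12 and 24 h. Infested Molly exceeded infested Newton by 3.81 ± 0.89 (log2, SE; limma adjusted p = 0.0025) at 12 h. At 6 h the difference was 3.24 ± 0.89 (log2, SE; limma adjusted p = 0.0084), a call lost without Newton 6 h replicate 2 (0.058). At 24 h it was 2.68 ± 0.89 (log2, SE; limma adjusted p = 0.032), a call lost without any 1 of 5 of the 6 arrays (adjusted p between 0.059 and 0.1), or with the 18S rRNA covariate (0.093).

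Ta.25678.1.A1_at, TaAffx.109962.1.S1_at and TaAffx.64818.1.S1_at, also of high rank, were higher in infested Molly as well. Ta.25678.1.A1_at read 5327, 3953 and 3878 at 6 h, 8886, 3160 and 6583 at 12 h and 7717, 13722 and 8742 at 24 h in infested Molly, against 59.7, 79.9 and 134 in uninfested Molly. Newton sheaths had 547, 287 and 1842 at 6 h, 393, 1606 and 156 at 12 h and 1071, 1338 and 1874 at 24 h with larvae and 45.2, 38.7 and 71.7 without. All its infested Molly arrays lay above all its infested Newton arrays, and Molly was higher by 2.71 ± 0.64, 3.62 ± 0.64 and 2.81 ± 0.64 at 6, 12 and 24 h (log2, SE; limma adjusted p = 0.0027, 0.0002 and 0.0027). TaAffx.109962.1.S1_at was higher in infested Molly by 3.77 ± 0.59, 4.21 ± 0.59 and 2.44 ± 0.59 at 6, 12 and 24 h (log2, SE; limma adjusted p = 5.5e-05, 1.6e-05 and 0.0041). For TaAffx.64818.1.S1_at the difference was 2.22 ± 0.51 and 2.37 ± 0.51 at 6 and 12 h (log2, SE; limma adjusted p = 0.0022 and 0.0013). TaAffx.38460.1.S1_s_at was already present without larvae, with 686, 816 and 384 in uninfested Molly and 137, 542 and 162 in uninfested Newton, and its rise was 14, 16.5 and 20.1-fold in Molly and 8.64, 6.49 and 15.6-fold in Newton at 6, 12 and 24 h.

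Among the remaining members of the first 12, Ta.22572.1.S1_at had a rise of 8.13, 11.7 and 7.75-fold in Molly and 3.87, 4.53 and 3.99-fold in Newton at 6, 12 and 24 h. Ta.24155.2.S1_x_at and Ta.24155.2.S1_s_at, of 1 design cluster, were the only members of the 12 whose lowest rise was in Molly at 12 h. For the first of them the rise was at least 20.7, 5.92 and 22.2-fold in Molly and at least 9.64, 10.1 and 27.2-fold in Newton at 6, 12 and 24 h.

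TUBA, the gene of an alpha-tubulin, a building block of microtubules, ranked 30 by Ta.723.1.S1_at. Its probe set read 1159, 2419 and 2522 at 6 h, 679, 622 and 429.7 at 12 h and 2519, 1753 and 2098 at 24 h in infested Molly, against 265, 142 and 224 in uninfested Molly. Signals in infested Newton were 371, 442 and 599 at 6 h, 514, 1449 and 141 at 12 h and 1123, 1485 and 2161 at 24 h, against 132, 93.2 and 126 in uninfested Newton. Infested and uninfested arrays did not overlap in either line. In Molly all 12 h arrays lay below all 24 h arrays, while Newton replicate 2 at 12 h reached the 24 h range. The rise was 9.43, 2.78 and 10.3-fold in Molly and 3.99, 4.08 and 13.3-fold in Newton at 6, 12 and 24 h. At 6 h infested Molly was higher than infested Newton by 2.06 ± 0.52 (log2, SE; limma adjusted p = 0.0044). Between 12 and 24 h signal rose in Molly by 1.89 ± 0.52 (log2, SE; limma adjusted p = 0.015), a call lost without Molly 12 h replicate 3 (0.067), or with the 18S rRNA covariate (0.11). In Newton it rose by 1.70 ± 0.52 (log2, SE; limma adjusted p = 0.037), a call lost without any 1 of 5 of the 6 arrays (adjusted p between 0.051 and 0.27), or with a floor of 85, with no filter (0.053 to 0.055). Another probe set listed for TUBA, Ta.812.1.S1_x_at, had geometric means between 19177 and 23990 in the infested groups and rises between -0.19 and 0.15 (log2), so the probe sets of this gene differed.

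Rab15, a dehydrin gene that responds to abscisic acid and water shortage, ranked 174 by Ta.2704.1.S1_at. Its probe set read 446, 520.4 and 405 at 6 h, 371, 367 and 324 at 12 h and 333, 279.5 and 128 at 24 h in infested Molly, against 113, 145 and 155 in uninfested Molly. The Newton signals were 144, 98 and 297 at 6 h, 183, 532 and 149 at 12 h and 304, 325 and 420 at 24 h with larvae, against 86.1, 79.4 and 89.4 without. Molly replicate 3 at 24 h lay among the uninfested Molly arrays, and Newton replicate 2 at 12 h stood above the other arrays of its group. The rise was 3.34, 2.59 and 1.68-fold in Molly and at least 1.86, 2.81 and 3.99-fold in Newton at 6, 12 and 24 h. Molly was higher than Newton at 6 h by 1.50 ± 0.40 (log2, SE; limma adjusted p = 0.007), a call lost without Newton 6 h replicate 2 (0.056). The change between 6 and 24 h differed between Molly and Newton by -2.10 ± 0.57 (log2, SE; limma adjusted p = 0.035), a call lost without any 1 of 8 of the 12 arrays (adjusted p between 0.057 and 0.11), or with no filter (0.051). A further Rab15 probe set, Ta.2704.1.S1_x_at, ranked 732, with rises of 1.73, 1.80 and 1.05 in Molly and 0.36, 1.05 and 1.64 in Newton (log2).

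Of the genes with an identifier alone, 5 were higher in infested Molly than in infested Newton at both 6 and 12 h with every array left out in turn. LOC542838 was higher at 24 h as well. Its probe set Ta.10084.1.S1_at read 4303, 3407 and 4038 at 6 h, 4452, 2808 and 3368 at 12 h and 3562, 3421 and 1767 at 24 h in infested Molly, against 324, 324 and 322 in uninfested Molly. Infested Newton arrays read 497, 434 and 1246 at 6 h, 484, 693 and 378 at 12 h and 488, 405 and 784 at 24 h, against 248, 275 and 304 on uninfested Newton arrays. All 9 infested Molly arrays lay above all 9 infested Newton arrays. Molly was higher by 2.60 ± 0.33, 2.79 ± 0.33 and 2.37 ± 0.33 at 6, 12 and 24 h (log2, SE; limma adjusted p = 5.8e-06, 2.5e-06 and 2e-05). LOC606308 (Ta.21262.1.A1_x_at) was higher by 2.29 ± 0.33 and 2.02 ± 0.33 at 6 and 12 h (log2, SE; limma adjusted p = 2.8e-05 and 9.9e-05). For LOC100049023 (Ta.4678.2.S1_at) the difference was 2.68 ± 0.55 and 2.68 ± 0.55 at 6 and 12 h (log2, SE; limma adjusted p = 0.00086 and 0.00083). For LOC100037518 (Ta.20434.1.S1_at) it was 1.65 ± 0.37 and 1.51 ± 0.37 at 6 and 12 h (log2, SE; limma adjusted p = 0.0017 and 0.0036), and for LOC100037600 (Ta.14588.2.S1_s_at) 1.20 ± 0.23 and 1.64 ± 0.23 at 6 and 12 h (log2, SE; limma adjusted p = 0.00043 and 1.7e-05). The geometric means of LOC606308, LOC100049023, LOC100037518 and LOC100037600 at 24 h were 2587, 298, 696 and 4317 in infested Molly. In infested Newton they were 1230, 161, 366 and 3541.

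LOC542941, 1 of the 3 brightest members, was well above background without larvae. Its probe set Ta.13334.1.A1_at read 7811, 8890 and 7469 at 6 h, 11930, 8990 and 11673 at 12 h and 6647, 13010 and 10205 at 24 h in infested Molly, against 1837, 1217 and 1461 in uninfested Molly. In Newton it read 3185, 1887 and 7607 at 6 h, 1612, 6003 and 1119 at 12 h and 3480, 4993 and 6187 at 24 h with larvae, against 918, 916 and 572 in uninfested sheaths. Newton replicate 3 at 6 h reached the range of the Molly arrays, and Newton replicate 2 at 12 h stood above the others of its group. The rise was 5.41, 7.26 and 6.46-fold in Molly and 4.56, 2.82 and 6.07-fold in Newton at 6, 12 and 24 h, and Molly was higher than Newton at 12 h by 2.28 ± 0.47 (log2, SE; limma adjusted p = 0.00085). LOC543390 (Ta.92.1.S1_s_at) had a rise of 3.08, 1.86 and 2.3-fold in Molly and 1.73, 1.71 and 2.4-fold in Newton at 6, 12 and 24 h, and Molly was higher at 6 h by 1.18 ± 0.23 (log2, SE; limma adjusted p = 0.00052). LOC606316 (TaAffx.129134.2.S1_at) and LOC543235 (Ta.192.1.S1_at) had no called difference among infested groups. For LOC606316 the rise was 2.26, 2.14 and 1.63-fold in Molly and 2.28, 2.04 and 1.9-fold in Newton at 6, 12 and 24 h. For LOC543235 it was at least 2.44, 2.46 and 3.26-fold in Molly and at least 2.55, 1.63 and 2.2-fold in Newton at 6, 12 and 24 h.

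Of the 16 genes, 8 had 11 further probe sets on the array, of which 0 were members and 7 read above 85 in some group. Their ranks lay between 294 and 54617, and the nearest were Ta.21262.1.A1_at of LOC606308, at rank 294, and Ta.14588.2.S1_x_at of LOC100037600, at rank 454. The last in rank, TaAffx.130064.3.S1_x_at of LOC542838, had geometric means between 79.1 and 242. Its rises were 0.82, 0.88 and -0.46 in Molly and -0.69, -0.07 and -0.35 in Newton (log2). TaAffx.129134.1.S1_at of LOC606316, with geometric means between 1196 and 1905, had rises between 0.13 and 0.63 (log2).

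**Figure D3:**
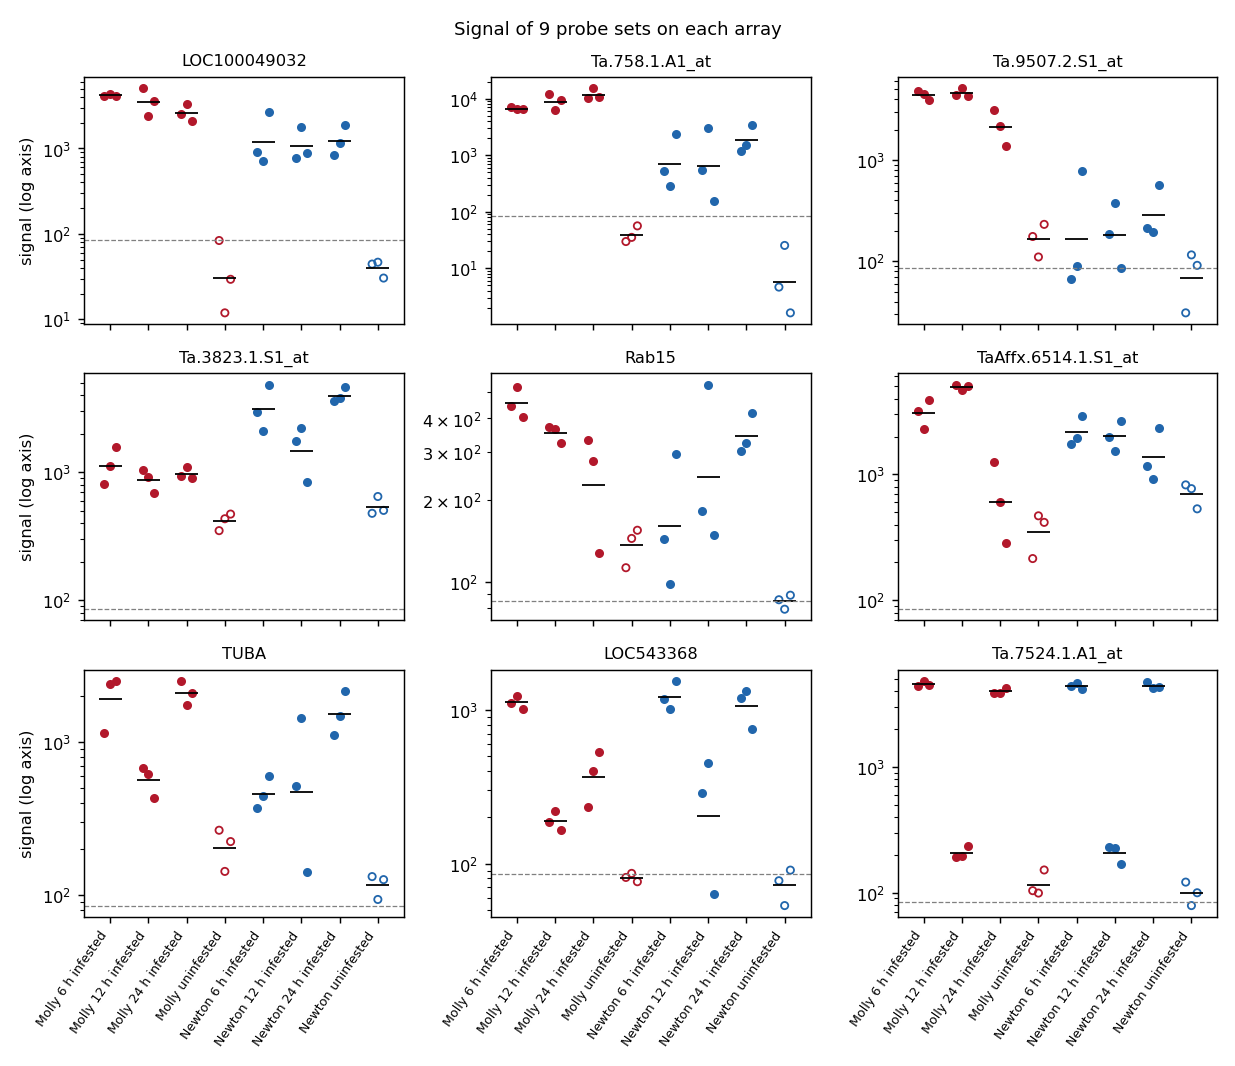
Signal of 9 probe sets on every array (log axes), with filled points for infested and open points for uninfested arrays, red for Molly and blue for Newton, a bar at the geometric mean of each group and a dashed line at 85. LOC100049032 and Ta.758.1.A1_at leave background in both lines, Ta.9507.2.S1_at is high in infested Molly and Ta.3823.1.S1_at in infested Newton, and in both lines LOC543368 is lower at 12 h than at 6 h and Ta.7524.1.A1_at is lower at 12 h than at 6 and 24 h.

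The brightest member was Ta.23079.2.S1_at. Ta.23079.2.S1_at read 17314, 16260 and 18432 at 6 h, 18721, 17010 and 17850 at 12 h and 17252, 14430 and 10436 at 24 h in infested Molly, against 3744, 6084 and 5026 in uninfested Molly. Newton sheaths had 6104, 6342 and 9815 at 6 h, 7558, 10860 and 4252 at 12 h and 12096, 12722 and 11684 at 24 h with larvae and 3540, 4493 and 3177 without. Infested Molly lay above infested Newton on every array of 6 and 12 h, and the lines overlapped at 24 h. The rise was 3.57, 3.68 and 2.83-fold in Molly and 1.96, 1.9 and 3.29-fold in Newton at 6, 12 and 24 h. Molly was higher than Newton by 1.26 ± 0.25 and 1.34 ± 0.25 at 6 and 12 h (log2, SE; limma adjusted p = 0.00068 and 0.00035). Ta.14360.1.S1_x_at, also among the 3 brightest, had a rise of 3.49, 2.26 and 2.75-fold in Molly and 1.85, 1.64 and 3.13-fold in Newton at 6, 12 and 24 h and was higher in Molly at 6 h by 1.05 ± 0.23 (log2, SE; limma adjusted p = 0.0012).

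Between 6 and 12 h some members fell and none was called higher in either line. In Molly 18 fell, 9% of the set against 2.24% of all tested probe sets, and 0 were higher against 2.8% (5.04% in either direction), with 1 higher at an unadjusted p under 0.05. In Newton 10 fell, 5% against 1.48%, and 0 were higher against 1.02% (2.5% in either direction), with 0 higher at an unadjusted p under 0.05 by limma. The Newton count was 16 without Newton replicate 2 at 12 h. The median change of the set was -0.19 in Molly and -0.15 in Newton (log2), against -0.03 and 0.01 over all tested probe sets. The lines shared 8 of these probe sets, 44.4% of the 18 and 80% of the 10, which is 4% of the set against 0.73% of all tested probe sets.

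Between 12 and 24 h 39 members fell in Molly and 52 rose in Newton. In Molly 22 also rose, 11%, which is near the 8.59% of all tested probe sets, and the 39 that fell made 19.5% against 8.05% (16.6% in either direction). These 61 calls became 40 without Molly replicate 3 at 12 h, 28 without Molly replicate 3 at 24 h and 39 with the 18S rRNA control as covariate. In Newton 52 rose, 26% against 5.35%, and 0 fell against 6.33% (11.7% in either direction), with 0 lower at an unadjusted p under 0.05 by limma. The lowest Newton rise at 24 h was 0.73 and the median at 12 h was 1.10 (log2), so the rule left little room for a fall. The Newton count was 32, 100 and 14 without replicate 1, 2 or 3 at 12 h, and 27 and 23 without replicate 2 or 3 at 24 h. The median change of the set was -0.14 in Molly and 0.65 in Newton (log2).

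Signal was lower at 12 h than at both 6 and 24 h for 14 members in Molly, 7% of the set against 1.64% of all tested probe sets. In Newton it was so for 10, 5% against 1.14%, and in both lines for 5, 2.5% against 0.583%. Ta.7524.1.A1_at had the largest dip. Ta.7524.1.A1_at read 4381, 4817 and 4522 at 6 h, 192, 196 and 237 at 12 h and 3890, 3887 and 4267 at 24 h in infested Molly, against 104, 99.3 and 152 in uninfested Molly. Signals in infested Newton were 4433, 4660 and 4146 at 6 h, 229, 227 and 169 at 12 h and 4767, 4242 and 4292 at 24 h, against 121, 79 and 99.9 in uninfested Newton. The 12 h arrays were far below the 6 and 24 h arrays in both lines and near the uninfested arrays, which were also taken at 12 h. Between 6 and 12 h signal fell by 4.46 ± 0.16 (log2, SE; limma adjusted p = 1.4e-13) in Molly and fell by 4.42 ± 0.16 (log2, SE; limma adjusted p = 1.7e-13) in Newton. Between 12 and 24 h it rose by 4.27 ± 0.16 (log2, SE; limma adjusted p = 3.3e-13) in Molly and 4.42 ± 0.16 (log2, SE; limma adjusted p = 1.7e-13) in Newton. Its rise at 12 h was 1.79-fold in Molly and at least 2.04-fold in Newton. The rises at 6 and 24 h, 39.4- and 34.6-fold in Molly and at least 43.6- and 43.8-fold in Newton, were measured against sheaths of another hour.

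The other 4 members low at 12 h in both lines had smaller dips. Ta.734.1.S1_at read 2928, 6279 and 4843 at 6 h, 774, 789 and 401 at 12 h and 2821, 2838 and 4737 at 24 h in infested Molly, against 345, 309 and 302 in uninfested Molly. The Newton signals were 3412, 3325 and 4479 at 6 h, 1511, 1849 and 365 at 12 h and 4583, 5263 and 4951 at 24 h with larvae, against 258, 295 and 323 without. Its 12 h arrays lay below its 6 and 24 h arrays in both lines. Between 6 and 12 h it fell by 2.83 ± 0.41 (log2, SE; limma adjusted p = 0.00015) in Molly and fell by 1.88 ± 0.41 (log2, SE; limma adjusted p = 0.013) in Newton. Ta.27661.1.S1_at fell by 1.63 ± 0.26 (log2, SE; limma adjusted p = 0.00037) in Molly and fell by 1.62 ± 0.26 (log2, SE; limma adjusted p = 0.00054) in Newton. LOC543244 (Ta.217.1.S1_x_at) fell by 1.37 ± 0.26 (log2, SE; limma adjusted p = 0.0029) in Molly and fell by 1.20 ± 0.26 (log2, SE; limma adjusted p = 0.013) in Newton. Its later rise in Molly was 0.79 ± 0.26 (log2, SE; limma adjusted p = 0.043), a call lost without any 1 of 5 of the 6 arrays (adjusted p between 0.056 and 0.19), or with a floor of 85, with no filter, with the 18S rRNA covariate (0.058 to 0.24). That of Ta.9530.1.S1_at in Molly was 0.86 ± 0.29 (log2, SE; limma adjusted p = 0.047), a call lost without any 1 of the 6 arrays (adjusted p between 0.07 and 0.16), or with a floor of 85, with no filter, with the 18S rRNA covariate (0.062 to 0.24).

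LOC543368 had the largest falls between 6 and 12 h among members with a gene. Its probe set Ta.639.1.S1_at read 1113, 1240 and 1014 at 6 h, 185, 218 and 164 at 12 h and 233, 403 and 529.8 at 24 h in infested Molly, against 81.1, 86.2 and 76.1 in uninfested Molly. Infested Newton arrays read 1170, 1013 and 1540 at 6 h, 289.5, 452 and 63.7 at 12 h and 1198, 1332 and 748 at 24 h, against 77.2, 53.2 and 90.5 on uninfested Newton arrays. At 24 h Newton was back near its 6 h level and Molly was not, and Newton replicate 3 at 12 h lay among the uninfested arrays. Between 6 and 12 h it fell by 2.57 ± 0.46 (log2, SE; limma adjusted p = 0.0013) in Molly and fell by 2.59 ± 0.46 (log2, SE; limma adjusted p = 0.0018) in Newton. It rose between 12 and 24 h in Newton by 2.39 ± 0.46 (log2, SE; limma adjusted p = 0.002). At 24 h infested Molly minus infested Newton was -1.53 ± 0.46 (log2, SE; limma adjusted p = 0.017), a call lost without Newton 24 h replicate 1 (0.054), or without Newton 24 h replicate 2 (0.073), or without Molly 24 h replicate 1 (0.095). LOC543416 (Ta.203.1.S1_at) fell by 2.15 ± 0.40 (log2, SE; limma adjusted p = 0.0023) in Molly between 6 and 12 h. Ta.30802.1.A1_at fell by 2.41 ± 0.37 (log2, SE; limma adjusted p = 0.00027) in Molly and fell by 2.44 ± 0.37 (log2, SE; limma adjusted p = 0.00031) in Newton.

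Of the members that rose between 12 and 24 h, 16 did so in both lines, 72.7% of the 22 in Molly and 30.8% of the 52 in Newton. That is 8% of the set, against 1.78% of all tested probe sets. Ta.19612.1.S1_at read 1684, 2387 and 2790 at 6 h, 744, 981 and 462 at 12 h and 3233, 2307 and 2824 at 24 h in infested Molly, against 181, 133 and 218 in uninfested Molly. In Newton it read 738, 890.5 and 875 at 6 h, 524, 1520 and 76.9 at 12 h and 1799, 2000 and 3334 at 24 h with larvae, against 78.1, 152 and 102 in uninfested sheaths. All its 24 h arrays lay above all its 12 h arrays in both lines, and Newton replicate 3 at 12 h was down at the uninfested level. It rose in Newton by 2.54 ± 0.62 (log2, SE; limma adjusted p = 0.012). In Molly it rose by 1.99 ± 0.62 (log2, SE; limma adjusted p = 0.032), a call lost without any 1 of 5 of the 6 arrays (adjusted p between 0.057 and 0.13), or with the 18S rRNA covariate (0.2). Ta.21043.1.S1_x_at rose in Molly by 2.45 ± 0.46 (log2, SE; limma adjusted p = 0.00089).

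TaAffx.6514.1.S1_at had the largest fall between 12 and 24 h in Molly. It read 3218, 2312 and 3886 at 6 h, 5158, 4658 and 5038 at 12 h and 1259, 605 and 283 at 24 h in infested Molly, against 215, 469 and 416 in uninfested Molly. Newton sheaths had 1756, 1962 and 2920 at 6 h, 1991, 1540 and 2654 at 12 h and 1174, 927 and 2355 at 24 h with larvae and 826, 771 and 533 without. In Molly the 24 h arrays lay below all arrays of 6 and 12 h, and replicate 3 was in the uninfested range. It fell by 3.04 ± 0.41 (log2, SE; limma adjusted p = 3.1e-05) in Molly, and its neighbour TaAffx.6514.1.S1_x_at fell by 2.56 ± 0.40 (log2, SE; limma adjusted p = 0.00013). Ta.13277.1.A1_at read 1807, 2259 and 1846 at 6 h, 2058, 2484 and 2128 at 12 h and 715, 330.3 and 249 at 24 h in infested Molly, against 195, 184 and 174 in uninfested Molly. Signals in infested Newton were 252, 293 and 778 at 6 h, 274, 644 and 378 at 12 h and 418, 434 and 509 at 24 h, against 148, 144 and 260.4 in uninfested Newton. It fell by 2.51 ± 0.38 (log2, SE; limma adjusted p = 8.9e-05) in Molly between 12 and 24 h.

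Between the infested lines, members were more often higher in Molly at 6 and 12 h. At 6 h 101 were higher in infested Molly than in infested Newton, 50.5% of the set against 13.4% of all tested probe sets, and 3 were lower, 1.5% against 17.5% (30.9% in either direction). At 12 h 91 were higher, 45.5% against 13.3%, and 1 was lower, 0.5% against 17.5% (30.8% in either direction). At 24 h 38 were higher, 19% against 11.7%, and 22 were lower, 11% against 13.0% (24.6% in either direction). The median difference of the set was 0.97, 0.77 and -0.09 at 6, 12 and 24 h (log2), against -0.05, -0.09 and -0.06 over all tested probe sets. The higher members came from 79 design clusters at 6 h and 69 at 12 h.

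**Figure D4:**
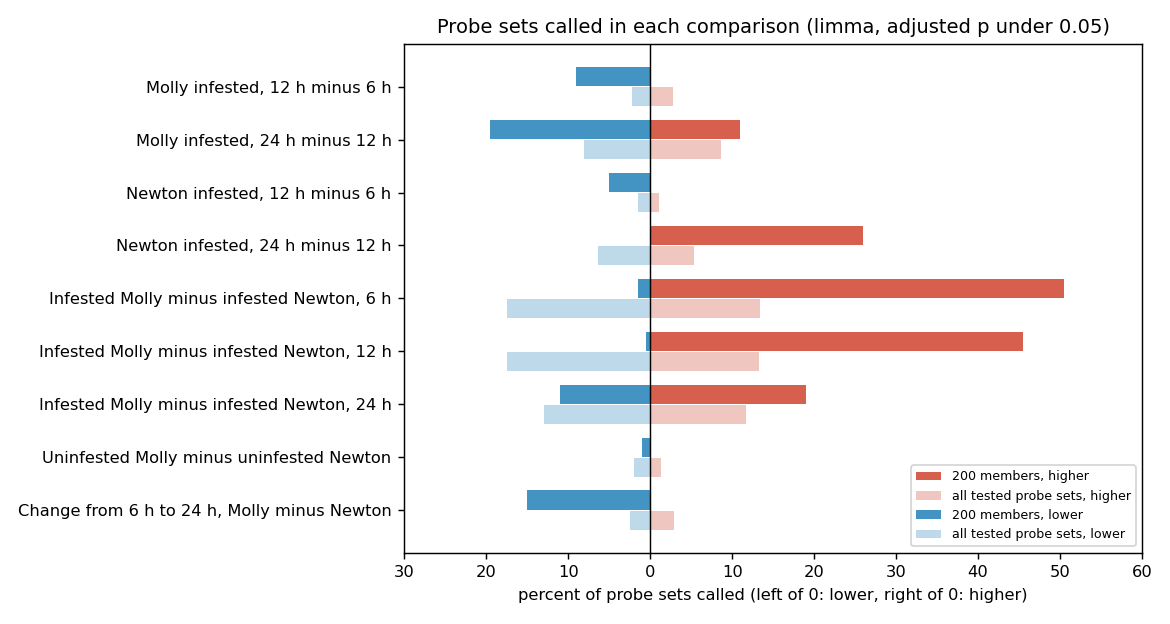
Percent of the 200 members (solid bars) and of all 36707 tested probe sets (pale bars) called by limma in each comparison, with red to the right for higher and blue to the left for lower. Between the infested lines the solid red bars reach 50.5% at 6 h and 45.5% at 12 h, beside pale bars of 13.4% and 13.3%.

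Both at 6 and at 12 h 82 members were higher in infested Molly, 41% of the set against 9.95% of all tested probe sets. At 24 h as well 37 were, 18.5% against 5.97%. Ta.9507.2.S1_at had the largest difference at both times. Ta.9507.2.S1_at read 4797, 4498 and 3922 at 6 h, 4390, 5117 and 4332 at 12 h and 3141, 2155 and 1371 at 24 h in infested Molly, against 176, 110.3 and 232 in uninfested Molly. The Newton signals were 67, 89.8 and 778 at 6 h, 184, 377 and 84.8 at 12 h and 213, 196 and 565 at 24 h with larvae, against 30.9, 116 and 91.2 without. Newton replicate 3 at 6 h stood alone, and the other Newton arrays of that time were within the uninfested Newton range. Infested Molly was higher by 4.71 ± 0.69, 4.67 ± 0.69 and 2.88 ± 0.69 at 6, 12 and 24 h (log2, SE; limma adjusted p = 3e-05, 3.2e-05 and 0.0042). Ta.9507.2.S1_x_at, of the same design cluster, was higher by 4.33 ± 0.57, 4.53 ± 0.57 and 2.80 ± 0.57 at 6, 12 and 24 h (log2, SE; limma adjusted p = 8.2e-06, 4.7e-06 and 0.00099).

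Ta.9905.1.S1_at was higher in infested Molly at each time too. It read 6038, 6299 and 8063 at 6 h, 7134, 6888 and 6157 at 12 h and 5878, 3652 and 1490 at 24 h in infested Molly, against 84.3, 75.9 and 92.2 in uninfested Molly. Infested Newton arrays read 272, 362 and 1578 at 6 h, 397, 508 and 227 at 12 h and 486, 393 and 1140 at 24 h, against 89.8, 146 and 83.9 on uninfested Newton arrays. All infested arrays were above the uninfested ones in both lines. Infested Molly was higher by 3.65 ± 0.52, 4.23 ± 0.52 and 2.40 ± 0.52 at 6, 12 and 24 h (log2, SE; limma adjusted p = 2.3e-05, 4.3e-06 and 0.0019).

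At 24 h Ta.2278.3.S1_x_at had the largest difference. Ta.2278.3.S1_x_at read 11805, 9439 and 11204 at 6 h, 12512, 8914 and 9518 at 12 h and 12035, 9163 and 8030 at 24 h in infested Molly, against 280, 778 and 904 in uninfested Molly. In Newton it read 500, 984 and 1410 at 6 h, 739.6, 966 and 436 at 12 h and 627, 488 and 849 at 24 h with larvae, against 406, 676 and 207 in uninfested sheaths. Infested Molly lay far above every other group, and infested Newton overlapped uninfested Newton at 6, 12 and 24 h. The difference was 3.60 ± 0.43, 3.91 ± 0.43 and 3.91 ± 0.43 at 6, 12 and 24 h (log2, SE; limma adjusted p = 3.1e-06, 1.2e-06 and 1.3e-06). At 24 h it was 3.48 ± 0.39 (log2, SE; limma adjusted p = 1.3e-06) for Ta.14231.1.S1_x_at and 3.44 ± 0.48 (log2, SE; limma adjusted p = 2.1e-05) for Ta.2278.1.S1_x_at. Ta.14231.2.S1_x_at was higher in Molly at 6 h by 3.98 ± 0.47 (log2, SE; limma adjusted p = 2.2e-06).

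Ta.3823.1.S1_at was the member most in favour of infested Newton at 6 and 24 h. It read 804, 1116 and 1567 at 6 h, 1036, 913 and 693 at 12 h and 928, 1103 and 906 at 24 h in infested Molly, against 349.5, 433 and 471 in uninfested Molly. Newton sheaths had 2977, 2104 and 4827 at 6 h, 1739, 2210 and 836 at 12 h and 3582, 3788 and 4616 at 24 h with larvae and 477, 646 and 503 without. Infested Newton lay above infested Molly on every array of 6 and 24 h. Infested Molly minus infested Newton was -1.48 ± 0.30 (log2, SE; limma adjusted p = 0.00089) at 6 h and -2.03 ± 0.30 (log2, SE; limma adjusted p = 5.3e-05) at 24 h. For Ta.21917.1.S1_at it was -0.71 ± 0.27 (log2, SE; limma adjusted p = 0.047), a call lost without any 1 of 5 of the 6 arrays (adjusted p between 0.058 and 0.25), or with a floor of 85, with no filter (0.062 to 0.067) at 6 h. For Ta.3235.1.S1_at it was -0.55 ± 0.20 (log2, SE; limma adjusted p = 0.042), a call lost without any 1 of 5 of the 6 arrays (adjusted p between 0.057 and 0.22), or with no filter (0.065) at 6 h. For LOC543398 (Ta.27312.1.S1_x_at) it was -1.48 ± 0.43 (log2, SE; limma adjusted p = 0.016), a call lost without Newton 24 h replicate 2 (0.057), or without Molly 24 h replicate 3 (0.087) at 24 h. The other probe set of LOC543398, Ta.21038.1.S1_at, ran the other way, with geometric means of 503 in infested Molly and 326 in infested Newton at 24 h.

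The change between 6 and 24 h was also tested between the lines. It was lower in Molly than in Newton for 30 members, 15% of the set against 2.47% of all tested probe sets. It was higher for 0, against 2.94% (5.4% in either direction), with 0 at an unadjusted p under 0.05 by limma. The median difference of changes was -0.97 (log2), against 0 over all tested probe sets. The count was 79 without Newton replicate 3 at 6 h and 54 without Molly replicate 1 at 24 h. It was 6 and 7 without Newton replicate 1 or 2 at 6 h, 16 and 13 without Molly replicate 2 or 3 at 6 h, 15 and 12 without Newton replicate 2 or 3 at 24 h, and 15 and 6 without Molly replicate 2 or 3 at 24 h. With no filter on dim probe sets it was 18.

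TaAffx.92008.1.A1_s_at had the largest difference of changes. It read 2265, 2075 and 2752 at 6 h, 1963, 1808 and 1966 at 12 h and 1171, 685 and 365 at 24 h in infested Molly, against 42.3, 82.7 and 82.9 in uninfested Molly. Signals in infested Newton were 116, 101 and 502 at 6 h, 229, 414 and 48.3 at 12 h and 725, 433 and 839 at 24 h, against 71.8, 51 and 58.4 in uninfested Newton. In Molly the 24 h arrays lay below all 6 and 12 h arrays, and in Newton the 24 h arrays lay above all uninfested arrays. The difference of changes was -3.65 ± 0.86 (log2, SE; limma adjusted p = 0.018), a call lost without Newton 6 h replicate 1 (0.06), or without Newton 6 h replicate 2 (0.059), or without Molly 24 h replicate 3 (0.066). For Ta.7022.2.S1_x_at it was -2.80 ± 0.61 (log2, SE; limma adjusted p = 0.012). For Ta.7022.2.S1_at it was -2.83 ± 0.69 (log2, SE; limma adjusted p = 0.021), a call lost without any 1 of 4 of the 12 arrays (adjusted p between 0.053 and 0.073).

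TaAffx.131567.2.S1_x_at, singled out after its values were seen, fell between 12 and 24 h in Molly and rose in Newton. TaAffx.131567.2.S1_x_at read 3568, 3705 and 4212 at 6 h, 4699, 2977 and 3883 at 12 h and 2262, 1552 and 1042 at 24 h in infested Molly, against 379, 375 and 383 in uninfested Molly. The Newton signals were 1039, 989.7 and 2839 at 6 h, 1238, 1998 and 1028 at 12 h and 2631, 2364 and 3325 at 24 h with larvae, against 822, 752 and 725 without. Molly lay above Newton on every array of 6 and 12 h and below it on every array of 24 h. The change between 12 and 24 h was -1.30 ± 0.32 (log2, SE; limma adjusted p = 0.0068), a call lost without Molly 24 h replicate 3 (0.059) in Molly. In Newton it was 1.01 ± 0.32 (log2, SE; limma adjusted p = 0.043), a call lost without any 1 of 5 of the 6 arrays (adjusted p between 0.069 and 0.21), or with a floor of 85, with median centring, with no filter, with the 18S rRNA covariate (0.057 to 0.068). The difference of its changes between 6 and 24 h was -2.25 ± 0.45 (log2, SE; limma adjusted p = 0.0078).

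**Figure D5:**
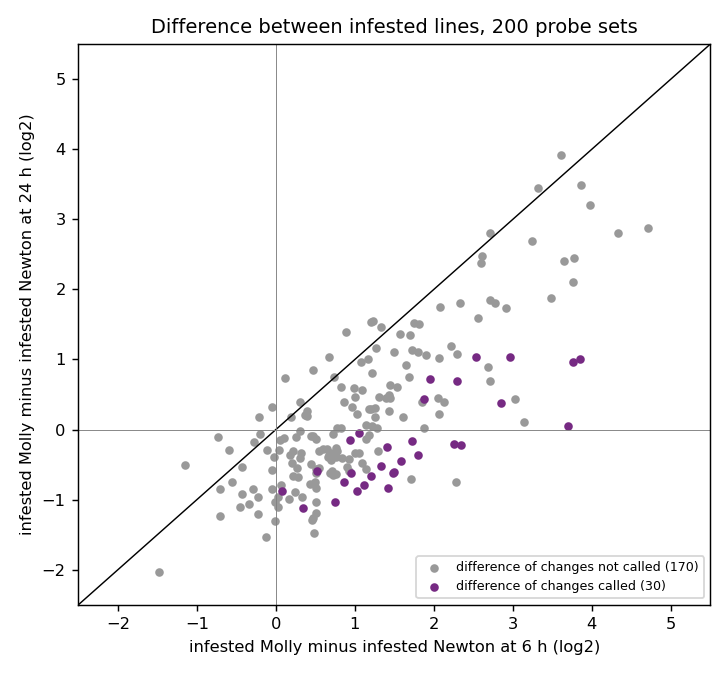
Each point is 1 of the 200 probe sets, with infested Molly minus infested Newton at 6 h on the horizontal axis and at 24 h on the vertical axis (both log2) and a diagonal where they are equal; purple marks the 30 probe sets whose change between 6 and 24 h differed between the lines by limma. The medians are 0.97 at 6 h and -0.09 at 24 h.

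The uninfested arrays entered the rule, so nothing about the set is read from their comparison. Between uninfested Molly and uninfested Newton 2 members were lower in Molly, 1% of the set against 2.03% of all tested probe sets, and 0 were higher against 1.37% (3.4% in either direction). By limma 26 had an unadjusted p under 0.05. TaAffx.82975.1.S1_x_at read 49.5, 29.2 and 20.1 in uninfested Molly and 89, 74.3 and 79.4 in uninfested Newton, near background in both. Ta.5598.1.S1_at read 290.5, 235 and 243 in uninfested Molly and 509, 605 and 392 in uninfested Newton, a difference of -0.95 ± 0.25 (log2, SE; limma adjusted p = 0.039), a call lost without any 1 of 5 of the 6 arrays (adjusted p between 0.056 and 0.19), or with median centring, with quantile normalization, with no filter, with the 18S rRNA covariate (0.053 to 0.061). The count of 2 became 0 without Newton replicate 1 or Molly replicate 2 or 3, and 1 without Newton replicate 3 or Molly replicate 1.

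No difference between the infested lines was called at any time for 69 members, 34.5% of the set against 51.7% of all tested probe sets. In none of the 7 comparisons among infested groups were 33 called, 16.5% against 45.8%, which does not show that their levels were equal. The 3 members of the design cluster Ta.23066 were among the 33. Ta.23066.2.S1_s_at read 399, 877 and 1465 at 6 h, 769.6, 1038 and 940.5 at 12 h and 742, 333 and 329 at 24 h in infested Molly, against 35.4, 61.3 and 62.7 in uninfested Molly. Infested Newton arrays read 501, 519 and 907 at 6 h, 293, 419.8 and 480.2 at 12 h and 248, 282 and 759.8 at 24 h, against 64.4, 118 and 42.4 on uninfested Newton arrays. Its infested arrays lay above all uninfested arrays of the same line, and the infested lines overlapped at 6 and 24 h but not at 12 h. The rise was at least 9.41, 10.7 and 5.09-fold in Molly and at least 6.51, 4.11 and 3.96-fold in Newton at 6, 12 and 24 h.

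Clusters with several members read related transcripts more than once. All 4 probe sets of the design cluster Ta.4678, which holds LOC100049023, were members. Ta.4678.1.S1_x_at had a rise of 20.9, 20.9 and 7.05-fold in Molly and 2.46, 3.06 and 2.53-fold in Newton at 6, 12 and 24 h, and Ta.4678.3.S1_x_at of at least 21, 20.9 and 6.77-fold in Molly and 2.99, 3.68 and 3.91-fold in Newton at 6, 12 and 24 h. For Ta.4678.1.S1_at it was 23.2, 25.5 and 8.01-fold in Molly and 1.72, 2.26 and 1.88-fold in Newton at 6, 12 and 24 h, and for Ta.4678.2.S1_at at least 9.99, 11.8 and 3.5-fold in Molly. In Newton the rise of Ta.4678.2.S1_at was at least 1.84 and 1.89-fold at 12 and 24 h, and none is given at 6 h, where replicate 1 with larvae was also under 85. All 4 probe sets of Ta.10263 were members too. Ta.10263.1.S1_at had a rise of 4.59, 4.17 and 3.8-fold in Molly and 2.17, 2.37 and 3.56-fold in Newton at 6, 12 and 24 h, and Ta.10263.2.S1_at, the dimmest, of at least 3.95, 3.41 and 3.79-fold in Molly and at least 1.85, 1.68 and 2.55-fold in Newton at 6, 12 and 24 h. In 19 of the 34 clusters with more than 1 member, every probe set of the cluster on the array was a member.

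Lists of wheat genes by symbol were set beside the 200, which are 0.327% of all wheat probe sets. Of 3 inhibitor and lectin genes with 4 probe sets, 6 detoxification genes with 14, 4 cell wall and lipid transfer genes with 6, 6 carbohydrate genes with 9 and 1 zinc finger gene with 1, 0 probe sets were members. Of 3 stress protein genes with 7 probe sets 1 was, that of Rab15. Lists this short hold too few probe sets to read these counts. GSTZ1, a glutathione transferase gene, had 3 probe sets, at ranks 222, 2865 and 4091. The highest in rank, Ta.237.1.S1_at, was under 85 in both uninfested lines, and its rises were at least 0.73, 0.67 and 0.76 in Molly and at least 0.83, 1.21 and 1.33 in Newton (log2) at 6, 12 and 24 h. Ta.237.1.S1_a_at, at rank 4091, had rises of 1.48, 1.69 and 1.07 in Molly and 0.03, 0.62 and 0.49 in Newton. XIP-I, a xylanase inhibitor gene, had probe sets at ranks 626 and 1840. Ta.1200.1.S1_x_at, at rank 626, had rises of 4.89, 5.13 and 3.61 in Molly and 0.39, 1.28 and 0.67 in Newton, of which the Newton values at 6 and 24 h lay below the limit.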

How the data were processed

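RNA of 24 leaf sheath samples was hybridised to Affymetrix wheat arrays. The authors deposited linear intensity values, 1 for each probe set, computed with MAS5 per the submitters' processing notes, which give no settings. The array has 61290 probe sets, of which 111 are controls and were left out, and 0 pairs of arrays were identical. The 200 members and all lists were chosen with earlier results of these data known.

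For membership, signals under 85 were raised to 85. For tests, log2 of the deposited intensity entered limma 3.58.1 (R 4.3.3) as group means with an intensity trend, over 36707 probe sets left after the dimmest 40% (limit 44.8). The spread of a probe set was estimated in a single fit over all groups, which takes it to be equal in them. The median SD of the members was 0.21 in infested Molly at 6 h and 0.60 in infested Newton at 12 h (log2). The SE may thus be too small where infested Newton at 6 or 12 h enters, and too large elsewhere. There were 16 residual degrees of freedom, tests were two-sided, and Benjamini-Hochberg adjustment was made within each of 9 comparisons. The script was tested on simulated data. The number of arrays limits the precision. Samples were not treated as paired by replicate number: in 0 of 28 pairs of groups did every same-number correlation exceed 0.1 (range -0.225 to 0.175). This limit cannot exclude pairing, and between Newton at 6 h and Newton at 24 h the correlations were 0.062 to 0.175. Calls that a replicate block ended are counted at the end and not marked beside each call.

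Alternatives were a floor of 85, median centring, quantile normalization, no filter, the 18S rRNA control as covariate, a replicate block and each array left out, and for membership also floors of 40 and 170 and group medians. Named were members paired with a gene, the 12 highest by rule value, up to 3 called members per direction and comparison with the largest difference and arrays that did not overlap (a condition dropped for the difference of changes), 2 on each side of the limit, the 3 brightest, and genes of lists and clusters. Lists by gene title could not be formed, since the annotation used here held no titles. It paired 1273 probe sets with 771 genes, 770 of them in the supplied RefSeq table. Positions and sequences were not used here. Python 3.11.15, pandas 2.3.3, numpy 2.4.6 and matplotlib 3.10.9 were used.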

Additional observations from a re-analysis of the deposited data

Results flagged for a closer look

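The change between 6 and 24 h differed between Molly and Newton for 30 members by a test of the difference itself (limma, adjusted p under 0.05), each with a lower change in Molly. The largest of these 30 differences were -3.65 for TaAffx.92008.1.A1_s_at, -2.83 for Ta.7022.2.S1_at and -2.80 for Ta.7022.2.S1_x_at (log2; limma adjusted p = 0.018, 0.021 and 0.012). The count of 30 lay between 6 and 79 with 1 array left out at a time. Groups of 3 arrays were too small to test for single outlying arrays, and arrays that stood apart are only described above.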

How the results depend on the processing

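Counts of called members stayed within 1.5 times under the floor of 85, median centring, quantile normalization, no filter, the 18S rRNA covariate and the replicate block, with these exceptions. The 18S rRNA covariate gave 39 for 24 h against 12 h in Molly, and no filter gave 18 for the difference of changes. The 2 calls between uninfested lines became 1 with the floor or quantile normalization and 0 with median centring, no filter, the 18S rRNA covariate or the replicate block. With the replicate block the count between infested lines was 99 at 6 h and 91 at 12 h. Leaving out 1 array at a time gave 13 to 19 calls for 12 h against 6 h and 28 to 62 for 24 h against 12 h in Molly, and 7 to 16 and 14 to 100 in Newton. It gave 80 to 116, 83 to 113 and 40 to 53 between infested lines at 6, 12 and 24 h, 0 to 3 between uninfested lines and 6 to 79 for the difference of changes. Membership kept 155 to 200 of the 200 with 1 array left out, 130 with a floor of 170, 138 with a floor of 40, 160 with group medians, 185 with median centring and 187 with quantile normalization, and 66 members were kept in all 29 alternatives. The causes were not tested. Of 151 called differences of named members, 97 kept the call in every alternative, 18 lost it with the replicate block and 0 reversed. Median centring put the median of all tested probe sets between infested lines at -0.205 at 6 h and that of the difference of changes at 0.101, and at 6 h infested Molly was then higher for 91 members and lower for 3.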
